A study of Homo sapiens with 6 samples.

Results

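The epithelial keratins described here are 10 genes: KRT7, KRT8, KRT80, KRT18, KRT19, KRT20, KRT23, KRT17, KRT15 and KRT10. They were taken by symbol from the deposited tables, through their Ensembl identifiers in gencode release 44. The set was chosen with earlier results of these data known, so its counts beside all tested genes only describe it. They are 10 of the 60676 genes listed and 10 of the 55 protein-coding keratin genes among them. All 10 passed the filter on low values in every comparison. RNA was sequenced from HT29, a human colorectal adenocarcinoma line, to ask how its transcripts respond to a shortage of histidine, with a shortage of tryptophan as the comparison for a general response to amino acid stress. The cells carried no engineered change. They spent 48 h in control medium (the group untreated), in medium lacking histidine (Hdepl) or in medium lacking tryptophan (Wdepl), with 2 libraries per group and 6 in all. The histidine-free medium was made on an RPMI base and the tryptophan-free medium on a DMEM F-12 base, both with dialyzed serum. HT29 is otherwise grown in DMEM with fetal bovine serum, and the base of the control medium of the RNA samples is not given in the sources used here. For its proteomics the study used full RPMI as the control. Loss of the amino acid therefore cannot be told apart from any difference in base medium or serum. Whether the 2 libraries of a group were separate cultures is not given either, and the p-values below then measure only the spread between these libraries.

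Keratins are the intermediate filament proteins of epithelial cells, and each filament is built from obligate pairs of a type I (acidic) and a type II (basic) chain. In simple epithelia such as the lining of the gut the main pair is KRT8 (type II) with KRT18 (type I), with KRT19 and KRT20 as further type I partners. The filaments give cells mechanical strength and are tied to each other and to the cell border by desmosomes and cytolinker proteins. An unpaired keratin chain is known to be unstable, so the balance between the types is a usual question for these genes.

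The libraries held between 46390819 and 64388876 reads on genes, and the fewest reads of any member in a library were 110 for KRT7 (in untreated) and 61 for KRT23 (in Hdepl), so counting error is largest for these 2. Values are normalized counts, scaled within each depletion's table, so an untreated library has slightly different values beside Hdepl and beside Wdepl. The 2 libraries of each group differed beyond counting noise, with a chi-square per degree of freedom over genes of 8.77 in untreated, 4.03 in Hdepl and 1.85 in Wdepl. The cells carried the epithelial markers EPCAM and CDH1 in every library. EPCAM, a surface adhesion protein of epithelial cells, was at 26653 and 28129 jointly scaled counts in untreated, 30629 and 31026 in Hdepl and 26636 and 26253 in Wdepl. In bulk RNA a lower value cannot be told apart as less RNA per cell or fewer cells of a kind.

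After histidine depletion 8 of the 10 keratins rose and 2 fell, against 39.1% of 18288 tested genes higher and 38.2% lower (limma on log2 of normalized count + 1, Benjamini-Hochberg adjusted p under 0.05). With at least a doubling as well, 7 keratins were higher and 0 lower, against 16.4% and 16.1% of all genes. The median log2 fold change was 1.52 over the 10 and 0.010 over all tested genes. The largest rises were in KRT7, KRT17 and KRT80, which the untreated cells held at low or middle levels. The main filament pair moved apart, with KRT8 higher and KRT18 lower.

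After tryptophan depletion 9 of the 10 rose and 1 fell, against 36.1% of 17960 tested genes higher and 34.8% lower by the same test. With at least a doubling, 5 were higher and 0 lower, against 10.0% and 10.4% of all genes. The median log2 fold change was 0.95 over the 10 and 0.013 over all tested genes. Here KRT20 rose most in this fit, but KRT7 did with quantile normalization (2.27 against 2.23 on the log2 scale). KRT8 and KRT18 both rose by a similar small amount. The 2 depletions share their untreated libraries, so their changes are not independent of each other.

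KRT8, the main type II keratin of simple epithelia, had 184717 and 200251 normalized counts in untreated and 320979 and 338977 in Hdepl. Both Hdepl libraries lay above both untreated ones, and the log2 fold change was 0.78 (SE 0.085, limma adjusted p = 1.02e-08). KRT18, its type I partner, went the other way, from 116882 and 122869 in untreated to 81046 and 86041 in Hdepl. The groups did not overlap, and KRT18 fell by 0.52 on the log2 scale (SE 0.068, limma adjusted p = 2.19e-07), which is 1.44-fold lower. Within a library, each read of KRT18 was matched by 1.58 and 1.63 reads of KRT8 in untreated and by 3.96 and 3.94 in Hdepl.

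After tryptophan depletion KRT8 had 244576 and 246153 normalized counts against 183477 and 198168 in untreated. KRT18 had 155636 and 155864 against 116098 and 121592. Neither gene's groups overlapped, and the log2 fold changes were 0.36 for KRT8 (SE 0.081, limma adjusted p = 2.84e-05) and 0.39 for KRT18 (SE 0.071, limma adjusted p = 4.39e-07). Both calls were lost when either Wdepl library was left out, with adjusted p of 0.137 and 0.147 for KRT8 and 0.0515 and 0.0521 for KRT18. Reads of KRT8 per read of KRT18 were 1.57 and 1.58 in Wdepl, just under the untreated libraries.

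Compared directly, on reads of all libraries scaled together, KRT8 was higher in Hdepl than in Wdepl by 0.40 on the log2 scale (95% interval 0.33 to 0.46) and KRT18 was lower, with a difference of -0.93 (95% interval -0.99 to -0.86). In this scaling KRT18 had 81036 and 86412 counts in Hdepl and 159788 and 158683 in Wdepl. KRT18 was the only member called in opposite directions by the 2 depletions. The size of the KRT8 change depended on the scaling. With quantile normalization it was 0.39 in Hdepl (limma adjusted p = 0.000149), 0.19 in Wdepl (0.00133) and 0.093 between them (0.0487), while KRT18 was at -0.74, 0.36 and -1.09. An exact permutation test of the ratio of KRT8 to KRT18 reads gave p = 0.333 for each pair of groups, which is the smallest p that 2 libraries against 2 allow.

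KRT8 and KRT18 are neighbours on chromosome 12, read in opposite directions. In GRCh38 KRT8 covers chr12:52897187-52949954 on the minus strand and KRT18 chr12:52948871-52952906 on the plus strand. Their annotated exons overlap over 7.63% of the exon bases of KRT8 and 17.1% of those of KRT18, and the canonical start sites lie 44042 bases apart. The library kit marked the strand, but whether the counting used it is not given in the sources used here. Without strand, reads from the shared bases cannot be assigned to either gene.

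Both genes also have many processed copies in the genome, 51 pseudogenes named after KRT8 and 67 named after KRT18, and reads from near-identical copies can be split between them. Reads on the named copies came to 3.49% of the reads of KRT8 and its copies together, and to 1.82% for KRT18. Of 15 tested copies of KRT8, 11 were higher and 1 lower after histidine depletion, with a median log2 fold change of 0.69 beside 0.78 for KRT8 itself. Of all tested genes 39.1% were higher and 38.2% lower. Of 11 tested copies of KRT18, 2 were higher and 6 lower, with a median of -0.50 beside -0.52 for KRT18. The 2 higher copies, KRT18P34 and KRT18P4, were under the filter of 10 in untreated (means 8.77 and 8.37), so only a rise could be called. The lower copy of KRT8, KRT8P39, was under it in Hdepl (mean 9.08), so only a fall could be called. The medians of both sets of copies thus had the sign of the gene they are named after. After tryptophan depletion the median was 0.27 over 16 copies of KRT8, of which 9 were higher and 0 lower. Over 13 copies of KRT18 it was 0.49, with 8 higher and 0 lower. Of all tested genes 36.1% were higher and 34.8% lower. Among those 8 copies, KRT18P34 and KRT18P2 were under 10 in untreated (means 8.70 and 6.99), so only a rise could be called. Whether the reads on the copies came from the copies or from the genes was not tested. KRT8P12, a copy on chromosome 3, stood apart from the rest, with means of 2166 in Hdepl against 352 in untreated and log2 fold changes of 2.62 without histidine and 0.55 without tryptophan. Adding the copies' reads to each gene changed no call among the 10 keratins.

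KRT80, a type II keratin found near desmosomes in differentiating epithelia, had 9974 and 11359 normalized counts in untreated and 63209 and 64203 in Hdepl. The rise was 5.98-fold, a log2 fold change of 2.58 (SE 0.059, limma adjusted p = 1.73e-21). After tryptophan depletion it reached 34670 and 37294 against 9908 and 11241, a log2 fold change of 1.77 (SE 0.050, limma adjusted p = 1.41e-68). KRT80 thus rose in both, and by 0.80 more on the log2 scale in Hdepl than in Wdepl (95% interval 0.73 to 0.86).

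KRT7, a type II keratin typical of ducts and usually scarce in colon, had only 119 and 127 normalized counts in untreated. It reached 1366 and 1385 in Hdepl, 11.1-fold higher, with a log2 fold change of 3.47 (SE 0.089, limma adjusted p = 1.44e-20). In Wdepl it had 537 and 593 counts against 118 and 126, a log2 fold change of 2.20 (SE 0.11, limma adjusted p = 2.64e-42). The change in Hdepl was above that of 98.5% of tested genes. KRT7 was still scarce beside KRT8 in Hdepl, with levels per kb of exon (RPKM, below) of 5.90 and 823. Antisense and pseudogene annotation (KRT7-AS and KRT87P) covers 7.85% of its exon bases on the other strand.

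Among the type I partners, KRT19, the smallest keratin and common in simple epithelia, had 19633 and 21320 normalized counts in untreated and 57642 and 62088 in Hdepl. That is a log2 fold change of 1.55 (SE 0.059, limma adjusted p = 2.47e-17). Wdepl gave 32390 and 32045 against 19501 and 21098, a log2 fold change of 0.67 (SE 0.051, limma adjusted p = 4.00e-25). KRT19 therefore rose 2.92-fold without histidine and 1.59-fold without tryptophan, and the direct difference was 0.86 on the log2 scale (95% interval 0.79 to 0.94).

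KRT20, a marker of differentiated intestinal cells, was the strongest riser of the 10 in Wdepl in the main fit. With quantile normalization it came below KRT7 (2.23 against 2.27). KRT20 had 10091 and 10579 normalized counts in untreated and 53940 and 53925 in Wdepl, 5.22-fold higher. Its log2 fold change was 2.38 (SE 0.050, limma adjusted p = 7.07e-85). In Hdepl it had 34603 and 34912 against 10160 and 10690, a log2 fold change of 1.74 (SE 0.052, limma adjusted p = 2.08e-19). KRT20 was lower in Hdepl than in Wdepl by the direct comparison, with a difference of -0.66 (95% interval -0.71 to -0.61). It is the abundant type I keratin, apart from KRT18, that stood higher without tryptophan than without histidine.

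RefSeq promoter windows were matched for 3 of the 10 members, KRT8, KRT10 and KRT20, and those of KRT10 and KRT20 are placed on the canonical start site. The 150 bases before each start are shown for these 2, since both genes rose in both depletions. They lie on the minus strand of GRCh38.p14 at chr17:40885243-40885392 for KRT20 and chr17:40822615-40822764 for KRT10, written 5′ to 3′ in the direction of the gene. Capitals mark matches on either strand to the motifs searched. TATAAA is the TATA box. TTTATG is the core read by the intestinal CDX factors. TGANTCA is the AP-1 motif, and the C/EBP-ATF motif is TGATGNAA. No match overlapped another.
KRT20: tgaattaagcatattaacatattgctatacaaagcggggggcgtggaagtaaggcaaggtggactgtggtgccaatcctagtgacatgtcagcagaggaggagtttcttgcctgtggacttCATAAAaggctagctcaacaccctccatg
KRT10: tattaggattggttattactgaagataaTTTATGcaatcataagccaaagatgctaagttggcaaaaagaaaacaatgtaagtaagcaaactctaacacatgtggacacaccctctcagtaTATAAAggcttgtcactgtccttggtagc
In KRT20 the CDX core lay on the opposite strand, from position -29 relative to the start. In KRT10 TATAAA lay at -29 and the CDX core at -122. Along the gene the KRT20 match reads CATAAA, which differs from TATAAA only in the first letter and starts at the same position. CDX cores are found in 10.6% of 35116 windows of 300 bases and TATAAA in 11.5%. The letters of the AP-1 motif (7.71% of windows) and of C/EBP-ATF (3.62%) were not in the windows of the 3 members. These matches describe letters only and no factor's binding was measured. The gene for CDX2, the main colonic factor that reads this core, fell after histidine depletion, with a log2 fold change of -1.37 (SE 0.10, limma adjusted p = 1.14e-11), and less after tryptophan depletion, at -0.24 (SE 0.088, limma adjusted p = 0.0108). Its part in the changes of the keratins was not tested.

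KRT17, a keratin of basal and injured epithelia, had 927 and 1078 normalized counts in untreated and 10201 and 10751 in Hdepl. This 10.5-fold rise gave a log2 fold change of 3.39 (SE 0.061, limma adjusted p = 2.22e-23), above that of 98.4% of tested genes. In Wdepl it had 3778 and 4286 against 921 and 1067, a log2 fold change of 2.02 (SE 0.056, limma adjusted p = 1.78e-70). Directly compared, KRT17 was 2.55-fold higher in Hdepl than in Wdepl, the widest gap among the 10 (1.35 on the log2 scale, 95% interval 1.24 to 1.46). Its pseudogenes held 1.04% of the reads of the gene and its copies.

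KRT10, a keratin of the outer layers of skin, had 740 and 764 normalized counts in untreated and 2114 and 2127 in Hdepl. Its log2 fold change was 1.49 (SE 0.061, limma adjusted p = 9.20e-17). In Wdepl it had 1297 and 1287 against 735 and 756, a log2 fold change of 0.79 (SE 0.064, limma adjusted p = 2.22e-23). As with KRT19, the rise was larger without histidine, by 0.69 on the log2 scale (95% interval 0.60 to 0.77).

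KRT15, a keratin of basal and stem cell layers, had 240 and 226 normalized counts in untreated and 496 and 505 in Hdepl. Beside Wdepl (514 and 480) the untreated libraries had 239 and 224. The log2 fold change was 1.10 in both depletions (SE 0.10 in both, limma adjusted p = 1.95e-10 and 5.18e-21). KRT15 was the member for which the direct comparison made no call, with a difference of -0.020 and a 95% interval of -0.17 to 0.13, a range that leaves room for small differences in either direction.

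KRT23, a type I keratin known to respond to histone deacetylase inhibitors, was the member that fell in both depletions. It had 127 and 137 normalized counts in untreated and 55.1 and 80.0 in Hdepl, and 126 and 136 against 94.6 and 92.6 in Wdepl. The groups did not overlap in either table, and the log2 fold changes were -0.98 in Hdepl (SE 0.18, limma adjusted p = 3.93e-05) and -0.48 in Wdepl (SE 0.16, limma adjusted p = 0.00521). Counts were low, and the Wdepl call was lost with DESeq2 (adjusted p = 0.0732), for a reason that was not tested. The direct difference between the depletions was -0.52 (95% interval -0.95 to -0.087, limma adjusted p = 0.0300) and was lost without Hdepl replicate 1, at -0.25 (adjusted p = 0.251, against -0.79 without Hdepl replicate 2), and without either Wdepl library (adjusted p of 0.112 and 0.0890). It was also lost with no filter (adjusted p = 0.0560), with limma without the trend (0.112) and with DESeq2 (0.116).

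Compared directly, 6 of the 10 keratins were higher in Hdepl than in Wdepl and 3 lower, against 39.9% of 18276 tested genes higher and 38.4% lower. The 6 were KRT7, KRT8, KRT80, KRT19, KRT17 and KRT10, and the 3 were KRT18, KRT20 and KRT23. All of the type II members were thus among the 6. With at least a doubling 2 were higher (KRT7 and KRT17) and 0 lower, against 16.4% and 15.7% of all genes. The median difference was 0.54 over the 10 and 0.018 over all tested genes.

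**Figure D1:**
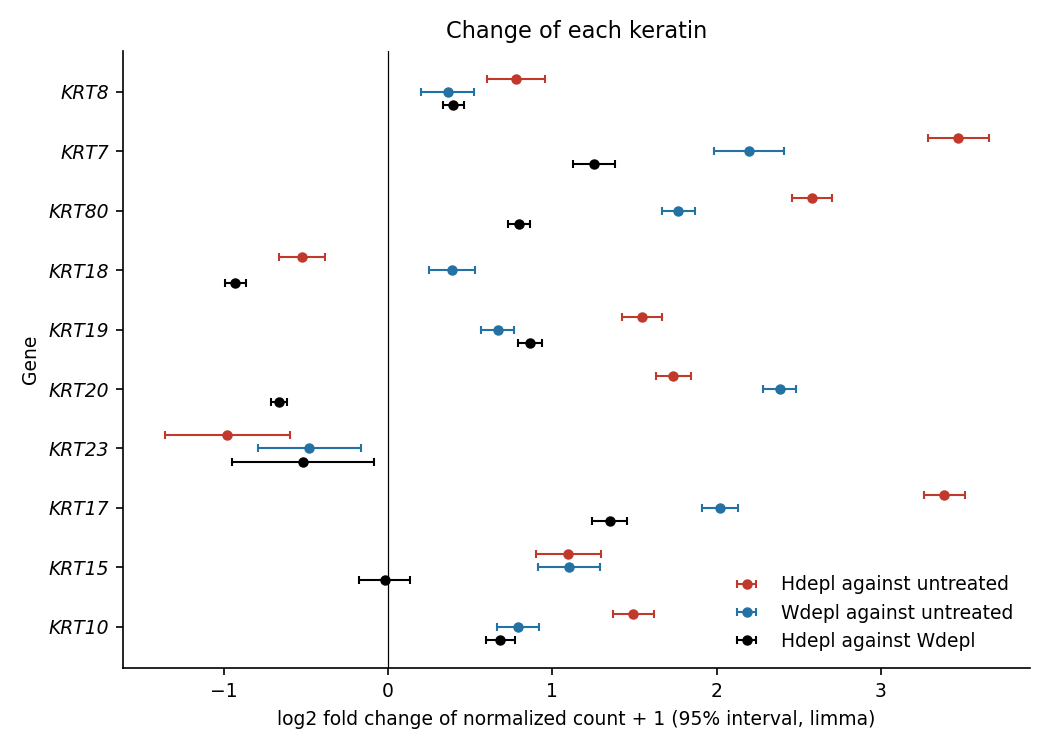
log2 fold change of each keratin with its 95% interval from limma, for Hdepl against untreated, Wdepl against untreated and Hdepl against Wdepl. The intervals of KRT18 lie on opposite sides of 0 in the 2 depletions, at -0.52 and 0.39, and the direct difference of KRT15 spans 0.

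Levels can be compared between genes only per length, here as RPKM (reads per kb of annotated exon, scaled to the library's total, mean of 2 libraries). In untreated the order was KRT18 at 764, KRT8 at 547, KRT19 at 172, KRT20 at 107 and KRT80 at 47.8. KRT10 at 6.80 and KRT17 at 6.54 followed and their libraries overlapped. KRT23 at 0.887, KRT15 at 0.765 and KRT7 at 0.603 closed the order. The simple-epithelial keratins thus stood far above the stratified ones, apart from KRT7.

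In Hdepl KRT8 led at 823, and KRT18 at 467 and KRT19 at 440 overlapped in their libraries. KRT20 at 312 and KRT80 at 251 came next, then KRT17 at 60.0, KRT10 at 16.8, KRT7 at 5.90 and KRT15 at 1.44, with KRT23 last at 0.399. In this order KRT17 stood clear of KRT10, and KRT7 above KRT15 and KRT23. In Wdepl KRT18 at 954 and KRT8 at 670 led as in untreated, and KRT20 at 530 had passed KRT19 at 259, ahead of KRT80 at 155, KRT17 at 25.3, KRT10 at 11.2, KRT7 at 2.65, KRT15 at 1.57 and KRT23 at 0.605. Parts of these orders depended on the length used. Divided by the longest annotated transcript, KRT8 came before KRT18 in untreated (1316 and 1124) and in Wdepl (1611 and 1402). In Hdepl KRT19 at 739 then passed KRT18 at 687, and in untreated KRT7 at 1.48 stood above KRT15 at 1.22 and KRT23 at 1.17. KRT17 at 10.7 was then already clear of KRT10 at 6.80 in untreated.

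Summed over the 3 type II and 7 type I members, type II keratin reads per kb came to 0.555 and 0.571 of type I in untreated, 0.835 and 0.829 in Hdepl, and 0.460 and 0.469 in Wdepl. The type II share was thus higher than untreated in both Hdepl libraries and lower in both Wdepl libraries. An exact two-sided permutation test gave p = 0.333 for each pair of groups, the smallest that 2 against 2 libraries allow. The size of the ratio rests on the gene lengths (0.887, 1.21 and 0.730 with longest transcripts), and the order of the 3 groups was the same. Within type I, KRT18 made up 72.3% (SD 0.30, n = 2) of the level in untreated, 36.0% (SD 0.21) in Hdepl and 53.5% (SD 0.02) in Wdepl. KRT19 took 16.2%, 33.9% and 14.5% in the same groups, and KRT20 10.1%, 24.0% and 29.7%. KRT19 and KRT20 both held larger shares of type I in Hdepl than in untreated, and in Wdepl KRT20 but not KRT19 did. Within type II, KRT80 rose from 8.02% to 23.2% in Hdepl and 18.7% in Wdepl, and KRT8 made up most of the rest.

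**Figure D2:**
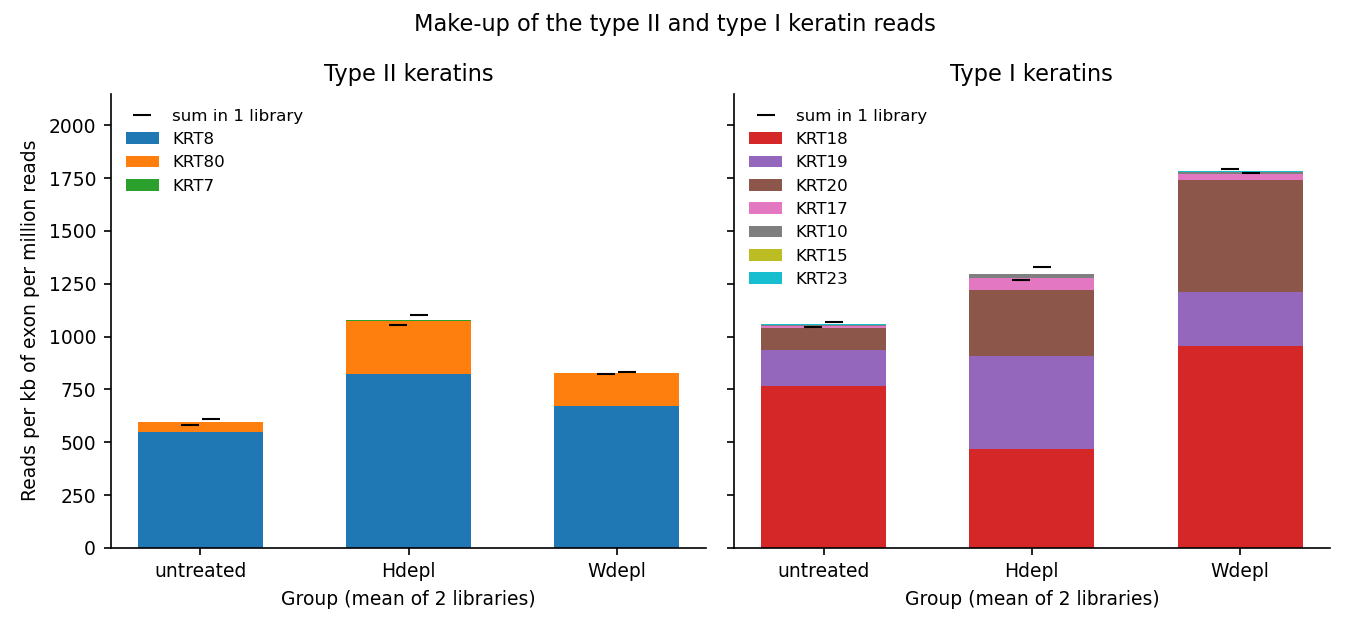
RPKM (reads per kb of exon, scaled to the library's total) of the type II (left) and type I (right) keratins by group, stacked by gene as the mean of 2 libraries, with a dash for the sum in each library. The KRT18 segment is smallest in Hdepl (467) and the KRT20 segment largest in Wdepl (530).

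All 10 together took 0.684% and 0.709% of the reads in untreated, 0.983% and 1.03% in Hdepl and 0.997% and 0.994% in Wdepl. The share was 1.44-fold higher in Hdepl and 1.43-fold higher in Wdepl than in untreated (exact two-sided permutation p = 0.333 for each, the smallest allowed). Between the depletions it differed 1.01-fold, and the libraries overlapped (exact p = 1).

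Since the study turned on histidine, the coding sequences of the canonical transcripts were read for their histidine codons (CAC and CAT) and tryptophan codons (TGG). KRT8 has 2 histidine codons among 483, a share of 0.414%. Of all protein-coding genes whose canonical coding sequence could be read, tested or not, 2.31% have a share that low or lower. KRT18 has 6 among 430 (1.40%). KRT7 and KRT17 have 3 each, KRT15 and KRT80 4 each, KRT19 6, KRT10 8 and KRT20 9. KRT23 is the member rich in histidine, with 16 among 422 codons (3.79%). The other 9 lie below the median of 2.45% over the 13150 protein-coding genes tested after histidine depletion. Tryptophan codons number 1 to 4 in each, and all 10 members lie below the median share of 1.08%. These are descriptions of sequence, and their part in the changes was not tested.

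Likeness of pattern was measured as the Euclidean distance over the 6 libraries of log2 values centred on the untreated mean, over 12480 genes whose mean reached 100. VPS4B, of the machinery that sorts membrane proteins, was nearest to KRT8 at 0.0589, followed by TRPC4AP at 0.0639 and MRFAP1L1 at 0.0652. ARSA, a lysosomal sulfatase, was nearest to KRT18 at 0.0657, then EAPP at 0.0668 and ALKBH5 at 0.0715. RRP12, a ribosome assembly factor, was nearest to KRT19 at 0.108, with MYH9, a non-muscle myosin, at 0.144 and HLA-E at 0.146. The gene nearest to KRT20 was another keratin, KRT81, at 0.286, followed by ZFAND2A at 0.360 and LINC02967 at 0.373. KRT20 therefore had no neighbour as near as those of the other 3 in this measure. Its changes were above those of 93.0% of tested genes in Hdepl and 98.6% in Wdepl. KRT81 had only 29.5 and 37.8 jointly scaled counts in untreated. How far large changes and low counts set these distances was not tested.

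Of the other 45 protein-coding keratins, 22 had no read in any library and 36 had at most 3 reads in every library, and the highest jointly scaled count of any was 338. After histidine depletion 7 could be tested, of which 5 were higher and 0 lower (39.1% and 38.2% of all tested genes), and among those reaching 100 normalized counts the largest changes were in KRT12 (a keratin of the cornea, 2.72), KRT40 (1.79) and KRT81 (a hair keratin, 1.79). After tryptophan depletion 6 of 7 were higher and 1 lower (36.1% and 34.8% of all tested genes). The largest rise was in the scarce KRT16 (2.36, from a mean of 9.28 to 51.2 normalized counts), followed by KRT81 (2.32), KRT12 (2.30) and KRT83 (1.71), while KRT40, with a difference of -2.05, was the lower one. KRT81, KRT83 and KRT86 are near-identical hair keratins, so the split of reads among them is uncertain. The medians of these small sets were 1.61 and 1.71, beside 0.010 and 0.013 over all tested genes.

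Genes for proteins that tie keratin filaments to the cell border and to each other were called in both directions. Of 15 tested genes of desmosomes and cytolinkers, 9 were higher and 5 lower after histidine depletion, with a median of 0.28, beside 39.1% and 38.2% of all genes. Among those reaching 100 normalized counts the cytolinkers PPL (periplakin, 2.07), DST (dystonin, 1.91) and PLEC (plectin, 1.37) rose most, and EVPL (-1.23) fell most. EVPL was also lower in Wdepl (-0.54). After tryptophan depletion 7 of 14 were higher and 6 lower, with a median of 0.016, beside 36.1% and 34.8% of all genes. PPL (1.04) and PLEC (0.94) rose there too, and PKP2, plakophilin of the desmosome plaque, fell by 1.05 on the log2 scale.

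Of 17 genes whose products bind or modify keratins, 10 were higher and 6 lower after histidine depletion, and 10 higher and 5 lower after tryptophan depletion, on the same background of 39.1% and 38.2% and of 36.1% and 34.8%. SQSTM1, the autophagy receptor p62 found with KRT8 and KRT18 in protein inclusions, rose from a mean of 19837 to 250607 normalized counts in Hdepl (log2 fold change 3.66) and to 58198 in Wdepl (1.57). CASP6, the caspase that cleaves KRT18, fell by 2.25 on the log2 scale in Hdepl and by 1.91 in Wdepl. DNAJB6, a chaperone that binds KRT18, rose by 1.65 in Hdepl and 0.53 in Wdepl. TGM2, a transglutaminase that crosslinks keratins, rose by 0.97 in Hdepl and 1.90 in Wdepl. Each of these named changes passed the limma test.

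Among the other intermediate filament genes 6 could be tested after histidine depletion, of which 2 were higher and 3 lower (39.1% and 38.2% of all genes). Of the genes reaching 100 normalized counts in a group, the nuclear lamins LMNB1 (-1.23) and LMNB2 (-0.86) fell most and LMNA (0.34) rose. After tryptophan depletion 2 of 7 were higher and 4 lower (36.1% and 34.8% of all genes), with LMNB1 at -2.95, LMNB2 at -1.30, LMNA at -0.23 and BFSP1, a lens filament protein, at 0.38. The B-type lamins thus fell in both depletions, and LMNA rose without histidine and fell without tryptophan. PRPH, also counted as higher in Wdepl, was under the filter of 10 in untreated (mean 1.52, against 38.1 in Wdepl). Only a rise of PRPH could therefore be tested.

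Markers of colon epithelium moved in both directions beside the keratins. Of 10, 3 were higher and 7 lower after histidine depletion (median -0.55), beside 39.1% and 38.2% of all genes. The largest fall was in the scarce GPA33 (-3.59, from a mean of 76.5 to 6.42 normalized counts), followed by CEACAM5 (-2.61), LGALS4 (-1.57) and CDX2 (-1.37). After tryptophan depletion 4 were higher and 3 lower (median 0.10), beside 36.1% and 34.8%. CEACAM5 (3.92), ELF3 (1.13) and CDH1 (0.71) rose, and GPA33 fell (-1.27). CEACAM5, a surface glycoprotein of colon cells, thus moved in opposite directions, like KRT18, with means of 514 and 85.6 normalized counts in untreated and Hdepl and of 510 and 7731 in untreated and Wdepl.

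Other cell types had few reads. Of 10 fibroblast markers, COL1A2 and PDGFRA were at 0 in every library, and the summed level of the list was between 58.7 and 110 jointly scaled counts in each library. COL1A1 fell in Hdepl (log2 fold change -1.10, 67.6 to 31.3 mean normalized counts) and COL6A3 was called higher in Wdepl (2.03, 7.58 to 33.0). COL6A3 was under the filter of 10 in untreated, so only a rise of it could be tested. Of 10 leukocyte markers, CD3D, MS4A1 and TYROBP were at 0 throughout. The sum of that list (64952 to 69603 in untreated, 12583 to 14613 in Hdepl and 38424 to 38443 in Wdepl) was nearly all LYZ, a gene that intestinal cells also use. LYZ had means of 67072, 13431 and 38045 in the same groups. The other 2 tested markers of this list were scarce. CD14 had a log2 fold change of -0.96 in Hdepl and 1.73 in Wdepl (110 to 365 mean normalized counts), and ITGAM of 0.50 and -3.18 (69.9 to 7.48 in Wdepl), all past the limma threshold. Their part in the changes of the keratins was not tested. The basal and squamous list summed to 258 to 283 counts in untreated, 224 to 283 in Hdepl and 371 to 383 in Wdepl, mostly from KRT13, and KRT6A was at 0 in all 6 libraries. Of its 10 genes 3 could be tested in Hdepl (1 higher, 0 lower) and 2 in Wdepl (2 higher), too few to set against the 39.1% and 36.1% of all tested genes called higher. KRT16 was called higher in both (1.61 and 2.36, at means of at most 51.2 normalized counts), and KRT13 rose in Wdepl (0.44). KRT16 was under the filter of 10 in untreated, so only a rise of it could be tested. TP63, KRT5 and KRT14, which define basal cells, were at 0 in both Wdepl libraries and at no more than 4.07 counts in any other, while KRT17 and KRT15 rose in both depletions.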

How the data were processed

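RNA of 6 HT29 samples (2 per group) was sequenced from stranded mRNA libraries. The authors used STAR 2.7.10a for alignment to GRCh38 and htseq-count 2.0.5 with an older gencode release for counting reads on exons. The study's methods name protein-coding genes, yet the tables also list pseudogenes with reads. They deposited normalized counts, a signal with no negative values made with DESeq2, in 1 table per depletion. How molecular identifiers and strand entered the counting is not given in the sources used here.

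Whole reads were recovered from 100% of the deposited values (tolerance 1e-06), and gencode release 44 gave gene names, exons and coding sequences. The keratins and the gene lists were chosen with earlier results of these data known. Genes averaging 10 or more normalized counts across the libraries compared were tested with limma 3.58.1 (R 4.3.3, mean-variance trend, two-sided) on log2(normalized count + 1). A gene under 10 in one group could pass through the other, and only a change toward that other group could then be tested. Among the genes called against untreated, this held for KRT16, COL6A3 and PRPH (low in untreated), GPA33 and PKP1 (low in Hdepl), ITGAM (low in Wdepl) and some pseudogenes. P-values were adjusted after Benjamini-Hochberg over all genes tested, with a threshold of 0.05. Since each table was scaled separately, Hdepl and Wdepl were compared on the recovered reads of all 6 libraries, rescaled by median-of-ratios size factors. RPKM values were computed from the recovered reads and the union of annotated exons. Totals and ratios were compared by an exact permutation test over libraries.

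All 10 keratins are given. From every other list up to 3 called genes per depletion are named, by the size of their change, where the higher group averaged 100 normalized counts or more. EPCAM, COL1A1, COL6A3, ITGAM, GPA33, KRT16, KRT86, EVPL, the LMNA fall, the genes at 0 and the lower KRT40 value were named outside that rule with their values known. PKP1, PRPH, KRT18P34, KRT18P4, KRT18P2 and KRT8P39 were named for their low values. So were the smaller DNAJB6 and TGM2 values.

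Alternatives were pseudocounts of 0.5 and 8, other filters (none, or 50), no trend in limma, quantile normalization, edgeR 4.0.16, DESeq2 1.42.0, a block for the replicate number, all groups fitted together, pseudogene reads added, and omission of each library. The fit was tested on simulated data with known changes.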

Additional observations from a re-analysis of the deposited data

Results flagged for a closer look

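The changes of 9 keratins differed between the depletions by the direct comparison of Hdepl with Wdepl (limma adjusted p under 0.05, 2 libraries each), where 39.9% of all tested genes were higher and 38.4% lower. On the log2 scale, Hdepl minus Wdepl, the differences were 1.35 for KRT17, 1.26 for KRT7, 0.86 for KRT19, 0.80 for KRT80, 0.69 for KRT10 and 0.40 for KRT8. They were -0.52 for KRT23, -0.66 for KRT20 and -0.93 for KRT18. The call of KRT23 was lost under 6 of the settings tried. Only KRT18 among these was called lower after one depletion and higher after the other. Such opposite calls were also made for 16 other genes of the lists, of which 6 are named by the rule for named genes. The 16 are 19.0% of the 84 listed genes tested in all 3 comparisons, and 18.3% of all 17147 such genes had opposite calls. The differences of these 6 were -6.54 for CEACAM5, -2.70 for CD14, -1.15 for KRT18P17, 3.82 for KRT40, 1.32 for PKP2 and 0.55 for LMNA. CD14 and KRT40 are scarce, with group means of at most 374 and 167 jointly scaled counts. KRT18P17 is a copy of KRT18, so the split of reads between them is uncertain.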

How the results depend on the processing

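Over the 10 keratins and the settings tried, 150 of 150 values for Hdepl against untreated kept their direction and side of the threshold. So did 145 of 150 for Wdepl against untreated, where 5 lost the call, and 152 of 160 for Hdepl against Wdepl, where 6 lost it. Sizes moved more: with quantile normalization the KRT8 changes were 0.39, 0.19 and 0.093 in these comparisons, beside 0.78, 0.36 and 0.40, and the cause was not tested. The 2 remaining values were of KRT15, which was never called there, at 0.11 with quantile normalization and between -0.075 (without Wdepl replicate 2) and 0.036 (without Wdepl replicate 1) with a library left out. With DESeq2, 0 keratins were lower in Wdepl. Requiring a log2 fold change of at least 1 left 3002 genes higher and 2947 lower in Hdepl (0 keratins lower), 1801 and 1873 in Wdepl (5 keratins higher, 0 lower) and 2999 and 2864 in Hdepl against Wdepl (2 keratins higher, 0 lower). Type II over type I levels were 0.887, 1.21 and 0.730 (untreated, Hdepl, Wdepl) with longest transcripts, and 0.850 in Hdepl and 0.473 in Wdepl with pseudogene reads.

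Leaving out each library in turn gave 8 keratins higher and 2 lower in Hdepl, 7 to 9 higher and 1 lower in Wdepl, and 6 higher and 2 to 3 lower in Hdepl against Wdepl. An arm left with 1 library is assumed to vary like the other group. No setting moved the median of all genes by over 0.1 on the log2 scale. The labels share replicate numbers, but nothing says that they pair cultures, and the replicate differences of the groups correlated at 0.12 (untreated and Hdepl), -0.053 (untreated and Wdepl) and -0.10 (Hdepl and Wdepl). With the replicate block 8 keratins were higher and 2 lower in Hdepl, 9 and 1 in Wdepl, and 6 and 3 between them. The crossed block, added after seeing the data, gave 6 and 3. With 2 libraries per group the exact tests of ratios could not pass the threshold, and the low counts of KRT23 limit its comparison.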
